A study of Mus musculus with 10 samples.

Results

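The genes of the mouse major histocompatibility complex (MHC) and of antigen presentation were followed across pancreas libraries that differ in the number of floxed alleles of Insr, the insulin receptor gene. Members were every symbol of the count table that begins with H2-, the prefix of the mouse MHC, together with B2m, Cd74, Ciita, Tap1, Tap2, Tapbp, Psmb8, Psmb9, Psmb10, Nlrc5 and Erap1. This gave 54 of the 24421 genes in the table. By symbol, 41 belonged to the class I side and 12 to the class II side. The remaining one, H2-Ke6, lies in the MHC but encodes a metabolic enzyme (Hsd17b8) and no MHC molecule, and was kept apart. The data were bulk mRNA libraries, 1 per mouse, from a piece of the pancreas tail of female mice aged 12 weeks. All mice carried Ptf1aCreER, an inducible Cre recombinase that acts where the acinar gene Ptf1a is active, and the nuclear reporter nTnG. The 3 WT libraries came from Insr w/w mice with 0 floxed alleles, the 3 Het libraries from Insr w/f mice with 1, and the 4 KO libraries from Insr f/f mice with 2. The Cre driver is an acinar one, whereas each library holds RNA of all cells in the tissue piece.

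MHC class I molecules sit on nearly all nucleated cells and show peptides made by the proteasome to CD8 T cells. The peptides are carried into the endoplasmic reticulum by the Tap1-Tap2 transporter, trimmed by Erap1 and loaded with the help of Tapbp (tapasin) onto a heavy chain paired with B2m. Class II molecules are mainly a property of dendritic cells, macrophages and B cells, in which Ciita switches on the A and E chains, the invariant chain Cd74 and the peptide editors H2-DM and H2-O, and they show peptides of ingested proteins to CD4 T cells. Nlrc5 is the class I counterpart of Ciita, and interferon gamma raises both branches. In pancreas, acinar cells make up most of the tissue, and class II RNA is known mainly from the resident leukocytes.

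The members are concentrated in 1 stretch of the genome. Of the 54, 50 matched 1 gene of the GENCODE mouse release 21 annotation (build mm10, the one named in the submitters' processing notes), and 44 of these lie on chromosome 17 between positions 33915899 and 37483552. The other 6 are B2m on chromosome 2, Psmb10 and Nlrc5 on chromosome 8, Erap1 on chromosome 13, Ciita on chromosome 16 and Cd74. Both branches are interleaved there: Psmb9, Tap1, Psmb8 and Tap2 (34181987 to 34216321) lie between the class II genes H2-DMb1 and H2-Ob. Tap1 and Psmb9 start head to head in RefSeq, 226 bases apart, on opposite strands, and their GENCODE models overlap at the starts. The strand setting of the counting is not given in the sources used here, so reads of that overlap cannot be assigned with certainty.

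Promoters of both branches are known for a few short motifs, through which the partners of Ciita and Nlrc5, NF-kB and interferon-responsive factors act. Promoters of 4 members that the results turn on are shown for these motifs. Each is the 200 bases before a start of transcription in RefSeq (GRCm38.p6, the mm10 assembly), 5′ to 3′ on the gene's strand. The class II genes H2-Eb1 (chr17:34305667-34305866, plus strand) and H2-Aa (chr17:34287824-34288023, minus strand) are set beside the class I heavy chain H2-K1 (chr17:34000348-34000547, minus strand) and the light chain B2m (chr2:122147487-122147686, plus strand). Capitals mark matches on either strand to the X box core AACNGATG, the Y box CCAAT, the enhancer A sequence GGGGATTCC or an interferon response motif, a pair of GAAA with 2 bases of any kind between them. A Y box on the opposite strand reads as attgg.
H2-Eb1: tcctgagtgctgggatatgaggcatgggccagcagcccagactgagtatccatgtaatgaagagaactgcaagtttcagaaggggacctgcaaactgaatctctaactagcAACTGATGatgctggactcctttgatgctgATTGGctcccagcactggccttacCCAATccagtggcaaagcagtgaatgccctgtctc
H2-Aa: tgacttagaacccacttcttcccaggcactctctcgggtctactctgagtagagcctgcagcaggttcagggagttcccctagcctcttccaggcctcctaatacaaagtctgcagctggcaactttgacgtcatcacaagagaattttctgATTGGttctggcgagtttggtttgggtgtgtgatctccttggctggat
H2-K1: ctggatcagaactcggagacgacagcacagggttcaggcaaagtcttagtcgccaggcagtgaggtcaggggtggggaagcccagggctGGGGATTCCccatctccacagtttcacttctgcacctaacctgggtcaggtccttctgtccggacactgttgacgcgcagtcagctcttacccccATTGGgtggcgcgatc
B2m: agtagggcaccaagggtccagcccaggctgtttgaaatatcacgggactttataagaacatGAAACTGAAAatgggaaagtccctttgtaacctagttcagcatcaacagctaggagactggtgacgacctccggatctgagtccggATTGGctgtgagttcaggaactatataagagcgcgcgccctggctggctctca
In H2-Eb1 the X box core stood 89 bases before the start and the Y boxes 59 and 35 bases before it. H2-Aa had a Y box alone, 48 bases before the start. In H2-K1 the enhancer A stood 111 bases before the start, and in B2m the interferon response motif stood 139 bases before it.

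Counted over all RefSeq promoter windows (250 bases before to 50 after the start, 32851 windows), the X box core letters were found in 2.32%, the Y box in 37.4%, the enhancer A in 0.25% and the interferon response motif in 3.44%. Windows were at hand for 38 members, among them 23 of the 32 members tested below. The X box core was in 4 of the 8 class II windows of tested members (H2-DMb2, H2-DMb1, H2-Eb1 and H2-Eb2) and in 0 of the 14 class I windows. The enhancer A was in H2-K1 and H2-D1 of the class I side and in 0 of 8 class II windows. The interferon response motif was in B2m, Erap1 and H2-T23, and again in 0 of 8 class II windows. The Y box was common on both sides, in 7 of 8 class II and 11 of 14 class I windows. A match describes letters and not binding, and a missing match says only that these letters were not in the window.

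Libraries held 11718559 to 19024351 gene counts. Levels are given as counts-per-million (CPM) of the library size scaled by TMM, a factor that evens out composition. This factor ran from 0.596 to 3.53, because the share of digestive enzyme transcripts differed between libraries. They took 15.7%, 58.1% and 71.3% of the counts in WT-2404, WT-1860 and WT-2067. In Het libraries the share was 70.3% to 75.9%, and in KO libraries 61.5% to 77.1%. WT-2404 therefore stood apart from the other libraries, and values without it are given beside the results it moved most. WT-1860 had the next lowest share, so leaving out WT-2404 does not even out enzyme share across groups. Insr itself was at 29.8 ± 9.88 CPM (SD, n = 3) in WT, 38.5 ± 8.92 CPM (SD, n = 3) in Het and 31.5 ± 5.95 CPM (SD, n = 4) in KO. With a log2 fold change of 0.09 from WT to KO (edgeR adjusted p = 0.864), the whole-tissue count of Insr did not separate the groups. A piece of tissue with fewer cells of a type and one with less RNA per cell cannot be told apart in bulk libraries.

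Most of the 54 symbols were either well counted or not counted at all. EdgeR's filter on low counts kept 32, made up of 20 class I members, 11 class II members and H2-Ke6. A further 14 had 0 counts in all 10 libraries, where the upper limit at 0 counts, 3 counts, would correspond to 0.0501 to 0.395 CPM depending on the library. These were the class II pseudogene H2-Ea-ps and the non-classical class I symbols H2-Q6, H2-Q7, H2-Q8, H2-Q9, H2-T9, H2-M1, H2-M5, H2-M10.1, H2-M10.2, H2-M10.3, H2-M10.4, H2-M10.6 and H2-M11. The last 8 were counted too rarely to test: H2-Bl had 52 counts over all libraries (39 of them in 1 library), H2-Q10, a secreted class I chain known from liver, had 41, H2-T22 had 26, and H2-L, H2-M9, H2-Q1, H2-T3 and H2-M10.5 had between 2 and 8. The 4 counts of H2-T3, the thymus leukemia antigen, all came from WT-2404. Similarity within the family limits these values. Of the 75-base stretches of the annotated exons, 82.1% were unique to H2-Q6, 83.0% to H2-Q7, 81.5% to H2-T22, 84.2% to H2-DMb1, 96.9% to H2-K1 and 100% to H2-Aa, H2-Ab1, H2-Eb1, Cd74 and B2m. Read length and the treatment of reads that fit several genes are not given in the sources used here, so a 0 in H2-Q6 to H2-Q9 or a split between H2-DMb1 and H2-DMb2 is uncertain.

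Per kilobase of annotated exon, which allows genes to be compared, the invariant chain and the light chain led. In WT libraries Cd74 was at 319 ± 125 and B2m at 207 ± 105 CPM per kb (SD, n = 3). The class II chains followed, with H2-Eb1 at 79.7 ± 27.0, H2-Ab1 at 64.9 ± 22.7 and H2-Aa at 47.9 ± 16.9 CPM per kb (SD, n = 3). The class I heavy chains were at 52.9 ± 17.8 (H2-K1) and 24.7 ± 9.93 (H2-D1) CPM per kb, beside Psmb10 at 23.3 ± 13.1 and Tapbp at 12.7 ± 3.3 (SD, n = 3). Neighbours among H2-Eb1, H2-Ab1, H2-K1 and H2-Aa differed by less than 1 SD, and so did H2-D1 and Psmb10. In the 7 Het and KO libraries Cd74 was at 125 ± 52.9, B2m at 108 ± 25.6, Psmb10 at 43.1 ± 6.97, H2-K1 at 38.6 ± 7.99, H2-Eb1 at 36.8 ± 15.7, H2-Ab1 at 30.2 ± 13.6, H2-Aa at 22.0 ± 9.23 and H2-D1 at 15.2 ± 2.70 CPM per kb (SD, n = 7). Psmb10 and H2-K1 were thus within 1 SD of H2-Eb1 in Het and KO tissue and above H2-Aa, whereas in WT tissue the mean of H2-Eb1 was above both.

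On average the class II branch was lower in the libraries with floxed Insr alleles. Enzyme share differed between these libraries and WT as well, and its part was not tested. At enzyme shares of 70.3% to 71.4%, the summed class II CPM was 667 (WT-2067), 308 (Het-2066), 610 (Het-2042) and 746 (KO-2079). With Het and KO set together against WT, all 11 tested class II members had log2 fold changes below 0, with a median of -1.13 and a range of -1.52 to -0.53. On the class I side 16 of 20 were below 0, with a median of -0.46 and a range of -0.96 to 1.08. Over all 13688 genes tested the median was 0.02 and 48.8% were below 0. No gene of the table passed an adjusted p of 0.05 in edgeR's quasi-likelihood test in this comparison (0 of 13688, 0% called, smallest adjusted p 0.0597), while 3867 genes had an unadjusted p under 0.05. By that unadjusted p, 9 of 11 class II members and 6 of 20 class I members were lower, and 2 class I members were higher. The background was 16.5% of all genes lower and 11.7% higher. DESeq2, run as an alternative, called 7 of the 11 class II members (H2-Aa, H2-Ab1, H2-Eb1, Cd74, Ciita, H2-DMa and H2-DMb1) and 2 class I members (H2-D1 and B2m) lower at an adjusted p under 0.05, against 8.5% of its genes called lower and 4% called higher.

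These differences depended on the WT libraries that entered. Without WT-2404 the class II median was -0.98 and the class I median -0.22, again with 11 of 11 class II members below 0. The members with an unadjusted p under 0.05 went from 9 to 6 in class II and from 6 to 0 among the lower class I members. Calls fell across the table as well: genes lower by that p went from 2260 of 13688 to 871 of 13684. Without WT-2067 edgeR called 2830 genes at an adjusted p under 0.05, among them 7 class II members and 3 class I members (H2-D1, B2m and Psmb8) that were lower and 1 class I member, H2-Q2, that was higher. By library size alone the median of all genes moved to -1.26, the class I median to -1.85 and the class II median to -2.52, and the values below are those after TMM.

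The separate comparisons share the WT libraries and are given side by side. In KO against WT, 11 of 11 class II members were below 0 with a median of -1.11, and 14 of 20 class I members with a median of -0.38, where 48.2% of all genes were below 0. By unadjusted edgeR p under 0.05, 7 class II and 3 class I members were lower and 1 class I member was higher, against 13.9% of all genes lower and 9.6% higher. Without WT-2404 the KO medians were -0.90 in class II and -0.07 in class I. By that p 2 class II and 0 class I members were then lower, against 728 of all 13684 genes. Adjusted calls numbered 0 in edgeR (0% of genes), with 3221 genes at an unadjusted p under 0.05, while DESeq2 called Cd74 and H2-DMa lower (5.27% of its genes lower, 2.14% higher). The ranges of KO and WT did not overlap in 3 class II members and 1 class I member in the lower direction and in 2 class I members in the higher, against 9.17% and 6.74% of all genes. In Het against WT, 11 of 11 class II members were below 0 with a median of -1.28, and 18 of 20 class I members with a median of -0.58, where 49.7% of all genes were below 0. There 7 class II and 5 class I members had an unadjusted edgeR p under 0.05 in the lower direction and 2 class I members in the higher, against 11.6% and 8.26% of all genes. Without WT-2404 the Het medians were -1.07 and -0.34. By that p 3 class II and 0 class I members were then lower, against 494 of all 13684 genes. No gene passed the adjusted threshold in edgeR (0%, 2714 genes at an unadjusted p under 0.05), and DESeq2 called 1.93% of its genes lower and 1.17% higher but no member. The ranges of Het and WT did not overlap in 9 class II and 4 class I members in the lower direction and in 2 class I members in the higher, against 13.5% and 11.3% of all genes.

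**Figure D1:**
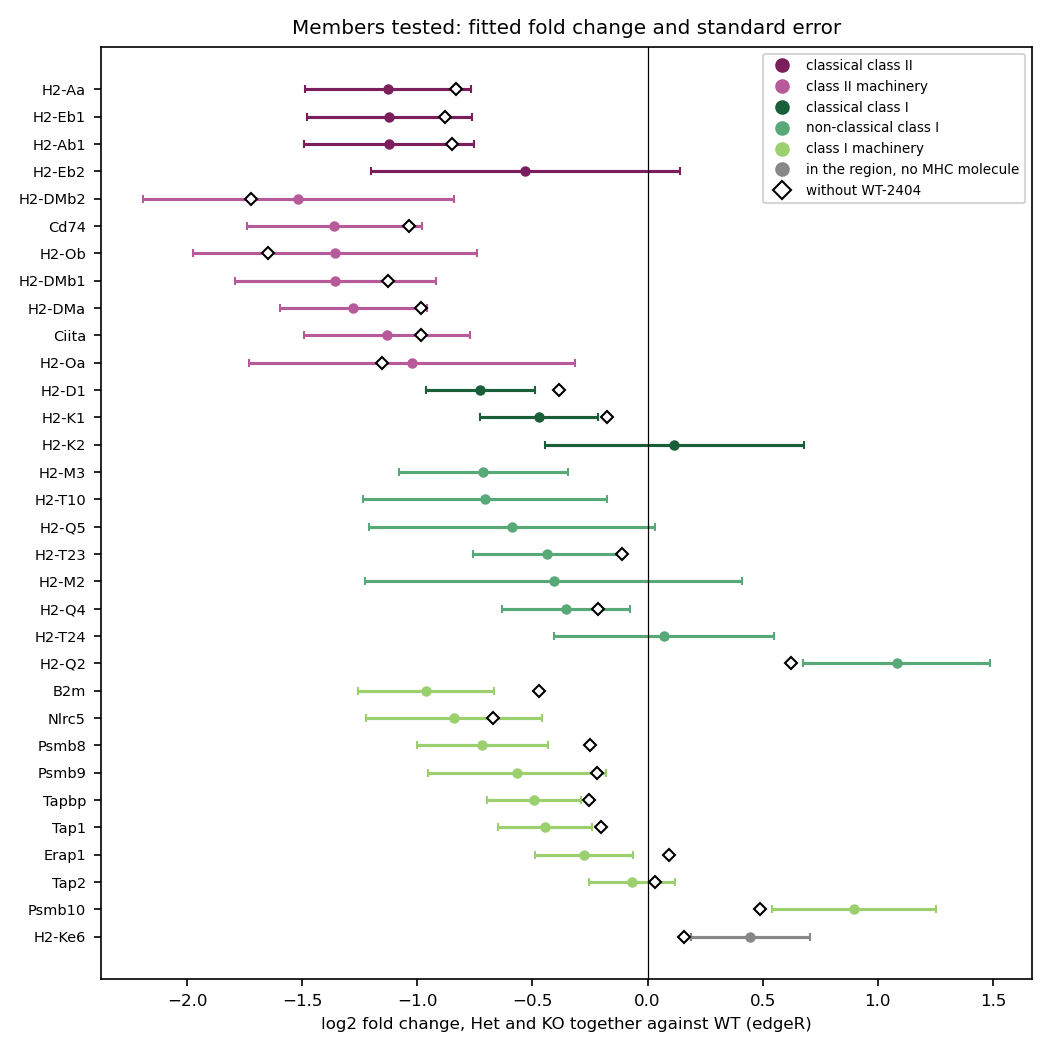
Log2 fold change of Het and KO together against WT (x axis) for the 32 tested members (y axis), grouped by role, with bars of 1 standard error from edgeR. Open diamonds give the value without WT-2404 for the 25 members whose values are given by library. All 11 class II members lie left of 0 with and without that library, while B2m, Psmb8 and other class I machinery move towards 0 without it.

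The classical class II genes H2-Aa, H2-Ab1 and H2-Eb1 encode chains of the peptide-binding molecules I-A and I-E. The E alpha symbol, H2-Ea-ps, had 0 counts in all 10 libraries, so these data do not show an I-E dimer. H2-Aa, the alpha chain of I-A, was at 246, 183 and 118 CPM in WT-2404, WT-1860 and WT-2067, at 58.5, 77.1 and 112 CPM in Het-2066, Het-1770 and Het-2042, and at 132, 48.6, 111 and 44.2 CPM in KO-2079, KO-2070, KO-2124 and KO-2126. Libraries are listed in this order from here on. All 3 Het libraries lay below the lowest WT library, whereas KO-2079 lay above it, and KO libraries split into a higher pair (KO-2079 and KO-2124) and a lower pair (KO-2070 and KO-2126). Het and KO differed from WT by a log2 fold change of -1.13 with a standard error (SE) of 0.36 (edgeR adjusted p = 0.0818, DESeq2 adjusted p = 0.0297), and -0.83 without WT-2404.

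H2-Ab1, the beta chain of I-A, was at 220, 176 and 104 CPM in WT, at 51.3, 66.0 and 96.3 CPM in Het and at 134, 52.8, 105 and 37.9 CPM in KO libraries. H2-Eb1, the beta chain of I-E, was at 199, 169 and 96.8 CPM in WT, at 50.6, 63.1 and 90.8 CPM in Het and at 120, 47.0, 94.1 and 35.7 CPM in KO libraries. Both repeated the order of H2-Aa almost library by library, with KO-2079 and, for H2-Ab1, KO-2124 above WT-2067. Their log2 fold changes were -1.12 (SE 0.37, edgeR adjusted p = 0.0867) and -1.12 (SE 0.36, edgeR adjusted p = 0.0818). The fourth tested chain, H2-Eb2, was rare at 0.581 ± 0.105 CPM (SD, n = 3) in WT and 0.401 ± 0.292 CPM (SD, n = 7) in Het and KO, and H2-Ea-ps was at 0 throughout.

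Cd74, the invariant chain that guides class II molecules to the endosome, was the most abundant member at 739, 548 and 321 CPM in WT, 133, 186 and 292 CPM in Het and 331, 135, 277 and 113 CPM in KO libraries. Every Het library was below every WT library, and KO-2079 was slightly above WT-2067. For Cd74 the estimate in Het and KO against WT was -1.36 on the log2 scale (SE 0.38, edgeR adjusted p = 0.0633, DESeq2 adjusted p = 0.0104), and -1.04 without WT-2404. Ciita, the master regulator of the branch, was at 9.29, 8.14 and 6.43 CPM in WT, 4.03, 2.61 and 3.50 CPM in Het and 6.0, 1.32, 5.62 and 2.12 CPM in KO libraries. All 7 Het and KO libraries were below the 3 WT libraries, and the estimate was -1.13 on the log2 scale (SE 0.36, edgeR adjusted p = 0.0809). Ranges that did not overlap were found in 3 class II members in the lower direction (Ciita, H2-DMa and H2-DMb2), against 5.84% of all genes.

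H2-DMa and H2-DMb1 encode the editor that swaps the invariant chain remnant for a peptide. H2-DMa was at 22.4, 16.7 and 11.0 CPM in WT, 4.30, 7.64 and 8.10 CPM in Het and 9.83, 4.61, 9.72 and 3.74 CPM in KO libraries, with no Het or KO library reaching WT. Its log2 fold change came to -1.28 (SE 0.32), the smallest p of any member in this comparison (edgeR adjusted p = 0.0612), and -0.98 without WT-2404. H2-DMb1 was at 15.8, 16.0 and 5.94 CPM in WT, 3.51, 3.07 and 6.07 CPM in Het and 10.9, 2.50, 5.94 and 2.73 CPM in KO libraries, so that WT-2067 sat among the Het and KO libraries. H2-DMb1 was estimated at -1.36 on the log2 scale (SE 0.44, edgeR adjusted p = 0.086). H2-DMb2, a near copy of it, was at 1.09, 2.79 and 0.980 CPM in WT and between 0 and 0.927 CPM in the others.

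H2-Oa and H2-Ob form a brake on H2-DM that is known from B cells and some dendritic cells. H2-Ob was at 1.95, 7.16 and 1.84 CPM in WT, 1.40, 1.21 and 0.982 CPM in Het and 0.865, 1.71, 3.64 and 0.202 CPM in KO libraries. Like H2-Oa, H2-DMb1 and H2-DMb2, it peaked in WT-1860 rather than in WT-2404, and it was second highest in KO-2124. The summed CPM of 7 B cell markers followed the same order at the top, with 38.0 CPM in WT-1860 and 23.1 CPM in KO-2124, and its part in the result was not tested. H2-Oa was low in all libraries, at 0.835, 1.42 and 0.857 CPM in WT, 0.351, 0.186 and 0.675 CPM in Het and 0.185, 0.922, 1.24 and 0 CPM in KO. The log2 fold changes of H2-Ob and H2-Oa were -1.36 (SE 0.62, edgeR adjusted p = 0.175) and -1.02 (SE 0.71, edgeR adjusted p = 0.356). Without WT-2404 the class II members given by library lay between -1.72 (H2-DMb2) and -0.83 (H2-Aa).

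**Figure D2:**
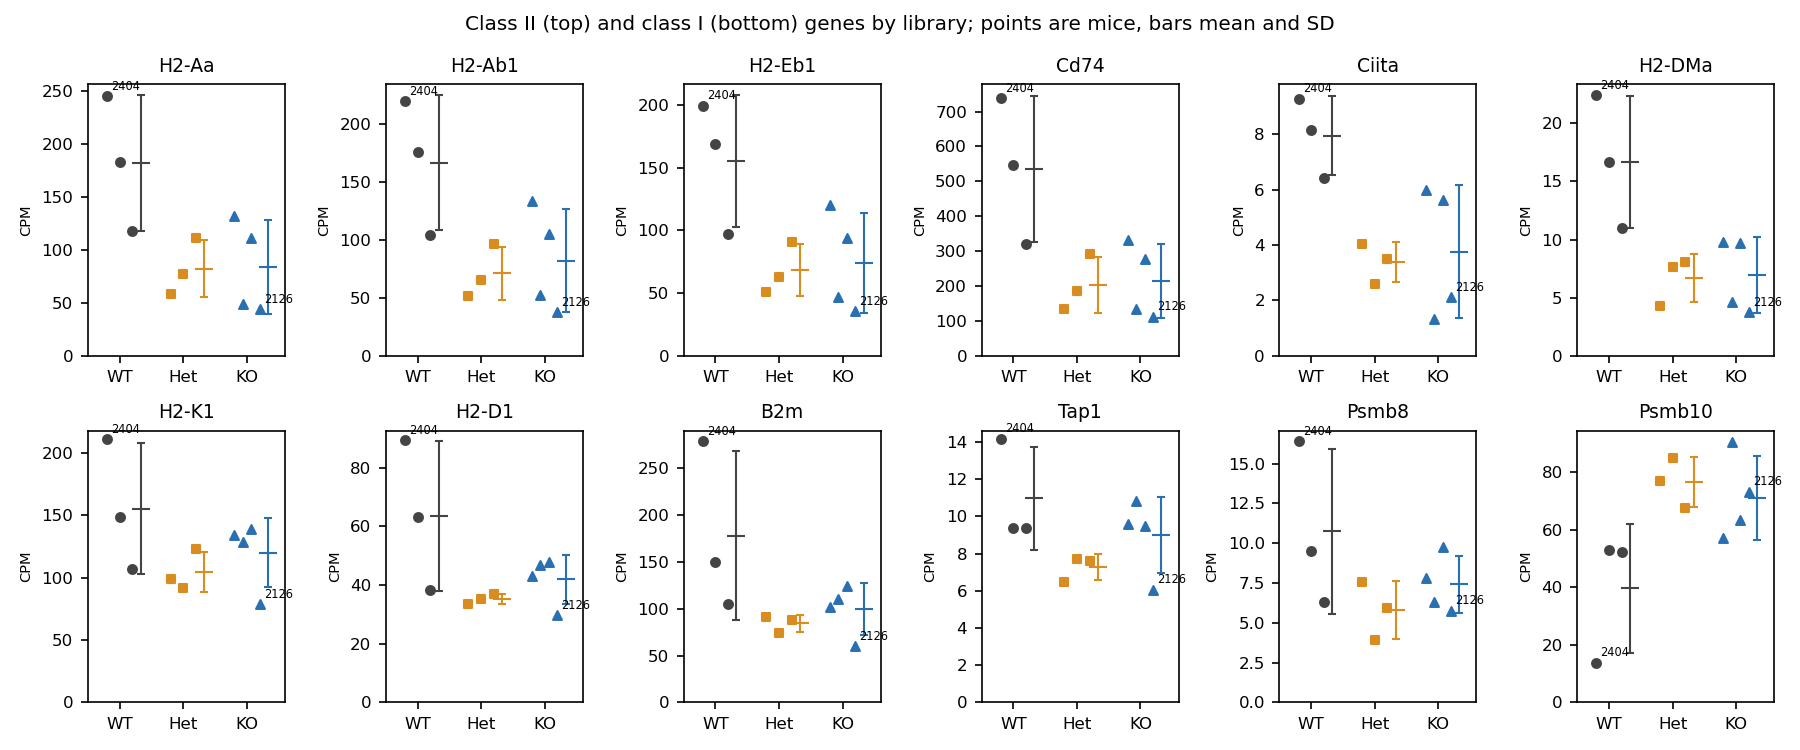
CPM (y axis, from 0) of 6 class II genes (top) and 6 class I genes (bottom) in the 3 WT, 3 Het and 4 KO libraries; points are mice, and bars give mean and SD. WT-2404 is the highest point in every panel but Psmb10, where it is the lowest, and H2-Aa, H2-Ab1, H2-Eb1 and Cd74 show the same split of the KO mice into 2 higher and 2 lower.

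The abundant class II genes H2-Aa, H2-Ab1, H2-Eb1 and Cd74 kept similar proportions while their levels differed several-fold between mice. The summed CPM of the class II members was 1456, 1128 and 667 in WT, 308, 407 and 610 in Het and 746, 296, 615 and 240 in KO libraries, a 6.08-fold range. Over the same libraries H2-Aa counts per H2-Ab1 count stayed between 0.920 and 1.17, and H2-Eb1 counts per H2-Ab1 count between 0.890 and 0.986. Cd74 counts per H2-Ab1 count ran from 2.47 to 3.36 and were highest in the 3 WT libraries, with 3.18 ± 0.157 (SD, n = 3) in WT and 2.73 ± 0.215 (SD, n = 7) in Het and KO. Class I members as a sum varied less, at 785, 555 and 416 CPM in WT, 407, 381 and 435 CPM in Het and 467, 500, 521 and 322 CPM in KO libraries, a 2.44-fold range. The median SD of log2 CPM over the 10 libraries was 0.84 among tested class II members, 0.58 among class I members and 0.40 among all genes.

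Among the class I molecules, the heavy chains H2-K1 and H2-D1 present peptides to CD8 T cells. H2-K1 was at 211, 148 and 107 CPM in WT, 98.9, 91.8 and 123 CPM in Het and 134, 129, 139 and 78.6 CPM in KO libraries. The groups overlapped widely, and 3 of the 4 KO libraries exceeded WT-2067. Its log2 fold change of Het and KO against WT was -0.47 (SE 0.25, edgeR adjusted p = 0.239), and -0.18 without WT-2404. H2-D1 was at 89.5, 63.1 and 38.3 CPM in WT, 33.7, 35.2 and 37.1 CPM in Het and 43.2, 46.7, 48.0 and 29.7 CPM in KO libraries. All Het libraries and KO-2126 were below the lowest WT library, and the other KO libraries were not. H2-D1 was estimated at -0.73 on the log2 scale (SE 0.24, edgeR adjusted p = 0.0836, DESeq2 adjusted p = 0.0418), and -0.39 without WT-2404. H2-K2, another symbol of the classical region, is annotated as a transcribed pseudogene and is among the tested class I members. It was at 1.40 ± 0.536 CPM (SD, n = 3) in WT and 1.55 ± 1.25 CPM (SD, n = 7) in Het and KO.

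B2m, the light chain of every class I molecule, was at 279, 150 and 106 CPM in WT, 91.7, 73.7 and 87.6 CPM in Het and 102, 111, 125 and 60.1 CPM in KO libraries. Het libraries lay below WT, while KO-2070 and KO-2124 exceeded WT-2067. B2m in Het and KO was estimated at -0.96 on the log2 scale (SE 0.29, edgeR adjusted p = 0.0736, DESeq2 adjusted p = 0.0216), the largest decrease estimated on the class I side, and -0.47 without WT-2404. B2m was thus lower relative to H2-K1, a heavy chain it pairs with. B2m counts per H2-K1 count were 1.32, 1.01 and 0.986 in WT and 0.927, 0.803 and 0.712 in Het libraries. In KO libraries they were 0.758, 0.861, 0.898 and 0.765. All 7 Het and KO values lay below the 3 WT values. H2-D1 counts per H2-K1 count were 0.403 ± 0.0384 (SD, n = 3) in WT. In Het and KO they were 0.348 ± 0.0296 (SD, n = 7). B2m was not set against H2-D1 or other heavy chains, nor all genes against H2-K1.

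Peptide supply genes differed from each other. Tap1 was at 14.2, 9.35 and 9.37 CPM in WT, 6.49, 7.73 and 7.61 CPM in Het and 9.58, 10.8, 9.49 and 6.06 CPM in KO libraries, with the Het libraries lowest as a group and 3 KO libraries above WT-1860 and WT-2067. Tap2, its partner in the transporter, was at 15.2, 13.3 and 12.2 CPM in WT, 10, 9.22 and 15.5 CPM in Het and 17.1, 15.0, 13.4 and 12.3 CPM in KO libraries, with full overlap. Their log2 fold changes in Het and KO against WT were -0.45 (SE 0.21, edgeR adjusted p = 0.176) and -0.07 (SE 0.19, edgeR adjusted p = 0.84). Without WT-2404 Tap1 was at -0.20 and Tap2, with the opposite sign, at 0.03.

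Tapbp, which bridges the transporter and the empty class I molecule, was at 59.4, 42.3 and 36.4 CPM in WT, 26.6, 34.0 and 40.2 CPM in Het and 34.8, 34.0, 35.0 and 23.7 CPM in KO libraries. All KO libraries were below WT, and Het-2042 was not. It was the class I member with separate lower ranges in KO against WT, and its log2 fold change there was -0.53 (SE 0.23, edgeR adjusted p = 0.187), or -0.30 without WT-2404. Erap1, the trimming peptidase, was at 17.7, 9.29 and 9.98 CPM in WT, 10.4, 8.01 and 9.51 CPM in Het and 13.8, 10.5, 9.77 and 10.8 CPM in KO libraries. WT-2404 was the highest of all, and without it the log2 fold change of Erap1 in Het and KO went from -0.28 (SE 0.21, edgeR adjusted p = 0.408) to 0.09.

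Nlrc5, the regulator of class I genes, was at 4.64, 4.26 and 2.76 CPM in WT, 2.10, 1.68 and 1.60 CPM in Het and 2.16, 3.42, 4.15 and 0.808 CPM in KO libraries. Het libraries lay below WT, and the KO libraries spread over both. The log2 fold change of Nlrc5 was -1.13 (SE 0.48, edgeR adjusted p = 0.224) in Het and -0.55 (SE 0.43, edgeR adjusted p = 0.442) in KO against WT, and -0.96 and -0.39 without WT-2404. In KO-2070 Nlrc5 was at 3.42 CPM and Ciita at 1.32 CPM, whereas in KO-2079 Nlrc5 was at 2.16 CPM and Ciita at 6.0 CPM, so the regulators did not rank the KO mice alike.

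The 3 immunoproteasome subunits, which replace catalytic subunits of the standard proteasome, did not share a direction. Psmb8 was at 16.4, 9.51 and 6.31 CPM in WT, 7.54, 3.91 and 5.95 CPM in Het and 7.79, 6.32, 9.77 and 5.76 CPM in KO libraries, and its log2 fold change in Het and KO was -0.72 (SE 0.29, edgeR adjusted p = 0.132), or -0.25 without WT-2404. Psmb9 was at 6.71, 5.58 and 2.14 CPM in WT, 3.33, 3.26 and 3.31 CPM in Het and 2.78, 3.82, 5.07 and 1.21 CPM in KO libraries, with a log2 fold change of -0.57 (SE 0.39, edgeR adjusted p = 0.35), or -0.22 without WT-2404. Both overlapped between groups. After TMM scaling Psmb10 lay the other way, at 13.9, 53.1 and 52.2 CPM in WT, 77.1, 85.2 and 67.7 CPM in Het and 57.1, 90.6, 63.4 and 73.3 CPM in KO libraries.

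After scaling, every Het and KO library had more Psmb10 than every WT library. On the log2 scale Psmb10 was higher by 0.90 (SE 0.35, edgeR adjusted p = 0.131, DESeq2 adjusted p = 0.0681), and 0.49 without WT-2404. Before scaling the counts of Psmb10 overlapped between groups, with 831, 971 and 853 in WT, 879, 914 and 1103 in Het and 924, 688, 1375 and 726 in KO libraries, and by library size alone the log2 fold change was -0.0036 where all genes had a median of -1.26. Its sign thus turned with the scaling, while its place above the median of all genes did not. H2-Q2, a non-classical class I gene, was also higher in each Het and KO library than in WT, at 0.551, 1.80 and 2.39 CPM in WT, 4.47, 3.73 and 2.82 CPM in Het and 2.72, 3.16, 2.81 and 2.73 CPM in KO libraries, from 24 to 61 counts per library. H2-Q2 was higher by 1.08 on the log2 scale (SE 0.40, edgeR adjusted p = 0.115), and 0.62 without WT-2404. These were the 2 class I members with separate higher ranges, against 3.99% of all genes.

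Each immunoproteasome subunit was set against the subunit it replaces in the same library, and these subunits differed between groups too. Psmb5, replaced by Psmb8, was higher in Het and KO by a log2 fold change of 0.53 (edgeR adjusted p = 0.0886). Psmb6, replaced by Psmb9, was higher by 0.44 (edgeR adjusted p = 0.104), and Psmb7, replaced by Psmb10, by 0.21 (edgeR adjusted p = 0.483). A lower ratio can therefore come from either of its genes. Psmb8 counts per Psmb5 count were 1.36, 0.961 and 0.477 in WT, 0.366, 0.225 and 0.391 in Het and 0.488, 0.414, 0.731 and 0.289 in KO libraries. All Het values were below WT, and 2 KO values (KO-2079 and KO-2124) were not. Psmb9 counts per Psmb6 count were 0.202 ± 0.106 (SD, n = 3) in WT, 0.0939 ± 0.0111 (SD, n = 3) in Het and 0.104 ± 0.0601 (SD, n = 4) in KO. Psmb10 counts per Psmb7 count were 0.592, 3.42 and 2.27 in WT and 2.67 to 3.73 in the other libraries. WT-2404 had both the highest Psmb8 and the lowest Psmb10 ratio. In the Psmb10 ratio WT-2067 was also below every Het and KO library, and WT-1860 lay among them.

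**Figure D3:**
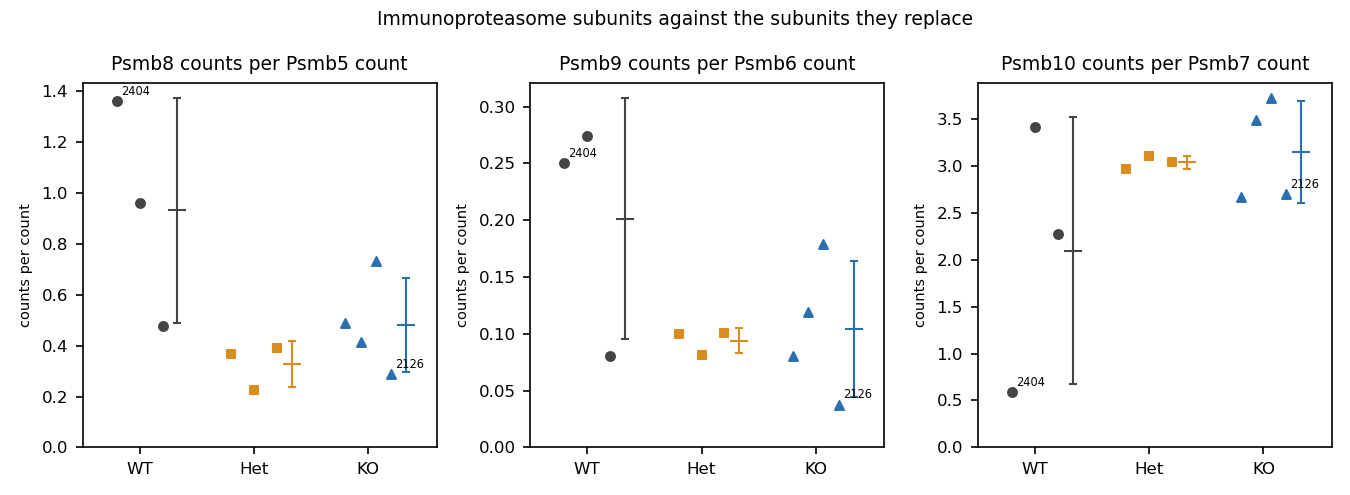
Counts of each immunoproteasome subunit per count of the standard subunit it replaces (y axis, from 0) in WT, Het and KO libraries; points are mice, and bars give mean and SD. The Psmb8 ratio runs from 0.225 to 1.36 with WT-2404 at the top, and the Psmb10 ratio of WT-2404, 0.592, is the lowest of its panel.

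The non-classical class I genes made up 8 of the tested members, and most were low. H2-Q4, which encodes a Qa-type chain, was at 18.9, 17.1 and 12.6 CPM in WT, 13.0, 8.48 and 10.9 CPM in Het and 15.1, 16.5, 21.2 and 6.77 CPM in KO libraries. KO-2124 was the highest library of all and KO-2126 the lowest, so the KO mice spanned the whole range. H2-T23 encodes Qa-1, the mouse counterpart of HLA-E that shows leader peptides to natural killer cells. It was at 26.1, 18.5 and 12.2 CPM in WT, 14.1, 11.7 and 15.0 CPM in Het and 18.1, 12.8, 20.6 and 5.86 CPM in KO libraries, again with KO-2126 lowest and KO-2124 second only to WT-2404. The log2 fold changes of Het and KO against WT were -0.35 for H2-Q4 (edgeR adjusted p = 0.414) and -0.44 for H2-T23 (edgeR adjusted p = 0.391), and without WT-2404 they were -0.21 and -0.11. H2-M3, which binds formylated peptides, was at 3.31 ± 1.21 CPM (SD, n = 3) in WT and 2.04 ± 0.816 CPM (SD, n = 7) in Het and KO. The other 4 (H2-Q5, H2-T10, H2-T24 and H2-M2) had group means of 0.237 to 2.0 CPM. Of these, H2-Q5 and H2-T10 are annotated as polymorphic pseudogenes.

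H2-Ke6, which shares the prefix and the region alone, was at 6.18, 15.2 and 11.6 CPM in WT, 12.7, 15.0 and 14.5 CPM in Het and 12.4, 17.5, 20.3 and 12.6 CPM in KO libraries. Its log2 fold change in Het and KO was 0.45 (SE 0.26, edgeR adjusted p = 0.27), and 0.16 without WT-2404. By library size alone the sign turned, to -0.58. Only 34.5% of its 75-base exon stretches were unique in the annotation, so its counts are the least certain among the members named.

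Between KO and Het, which differ by 1 floxed allele, no member stood out. All 11 class II members were higher in KO, with a median log2 fold change of 0.17, and 16 of 20 class I members with a median of 0.28, where 48.6% of all genes were below 0. By unadjusted edgeR p under 0.05 there were 0 members, against 0.351% of all genes lower and 0.402% higher, and 0 genes passed the adjusted threshold in edgeR (0%, 103 genes at an unadjusted p under 0.05) or DESeq2 (0%). Ranges that did not overlap were found in 0 members, against 1.16% of all genes lower and 1.3% higher. The signs in class II rested on single mice: without KO-2079 the class II median was -0.12 with 8 of 11 members below 0, and without KO-2124 it was -0.10. For Cd74 the KO against Het log2 fold change came to 0.07 (SE 0.44), and for H2-K1 it was 0.20 (SE 0.29).

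Markers of the cells known to carry class II were lower on average in Het and KO as well. The summed CPM of the general leukocyte genes Ptprc, Coro1a and Laptm5 was 139 ± 61.8 (SD, n = 3) in WT, 46.5 ± 10.1 (SD, n = 3) in Het and 45.3 ± 26.5 (SD, n = 4) in KO. No marker passed edgeR's adjusted threshold, so the lists are described by sign, median and unadjusted edgeR p under 0.05. By that p 16.5% of all genes were lower and 11.7% higher. The 7 macrophage markers all had log2 fold changes below 0 in Het and KO (7 by that p), with a median of -1.70 and summed CPM of 253 to 1108 in WT and 88.1 to 304 in the others. Of 7 tested dendritic cell markers 6 were below 0 (2 by p, and 1 higher by p), with a median of -0.69, and the sums were 14.5 to 24.7 CPM in WT and 6.46 to 16.0 CPM in the others. The dendritic marker that was higher by p was Zbtb46, with a log2 fold change of 0.83. It was at 1.93 ± 0.310 CPM (SD, n = 3) in WT and 3.41 ± 1.04 CPM (SD, n = 7) in Het and KO. Of the other dendritic markers, Clec9a was at 0 in WT-2067 and Het-2066 and Cd209a at 0 in KO-2079 and KO-2070. The 7 B cell markers were all below 0 (4 by p), with a median of -1.79, and so were the 6 tested T cell markers (3 by p), with a median of -1.14. Fibroblast markers were below 0 in 7 of 7 (5 by p, median -1.60), and the 23 acinar markers were above 0 (1 by p, median 1.21, summed CPM 44378 in WT-2404, the lowest, and 1293270 in KO-2126, the highest). Without WT-2404 the medians were -0.88 for macrophage, -0.33 for dendritic, -2.03 for B cell, -1.20 for T cell, -1.08 for fibroblast and 0.65 for acinar markers, with 1 fibroblast marker above 0 and 1 acinar marker below 0. By unadjusted edgeR p, 0 macrophage, 1 dendritic, 5 B cell, 2 T cell and 4 fibroblast markers were then lower and 0 acinar markers higher. Of all 13684 genes, 871 were then lower and 715 higher by that p. The part of these cells in the class II and class I differences was not tested.

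Set against Ptprc, a general leukocyte gene, in the same library, the class II sum overlapped between groups and the class I sum did not. Ptprc itself was at 33.5 ± 9.72 CPM (SD, n = 3) in WT and 13.1 ± 5.81 CPM (SD, n = 7) in Het and KO. Class II counts per Ptprc count were 36.3, 29.6 and 29.8 in WT, 26.0, 35.8 and 45.2 in Het and 45.9, 30.3, 26.0 and 47.5 in KO libraries, which overlapped fully. Class I counts per Ptprc count were 19.5, 14.6 and 18.6 in WT, 34.4, 33.5 and 32.2 in Het and 28.7, 51.4, 22.0 and 63.8 in KO libraries. All Het and KO libraries were above all WT libraries in this ratio. The summed class I CPM nevertheless averaged 585 in WT and 433 in Het and KO, the difference in Ptprc being larger. Any gene that is lowered less than Ptprc gives a higher ratio in Het and KO. The share of all genes with such a separation was not computed. Class II counts per count of the 3 leukocyte genes together were 7.98 ± 0.687 (SD, n = 3) in WT and 10.3 ± 2.02 (SD, n = 7) in Het and KO. These ratios do not depend on library scaling.

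**Figure D4:**
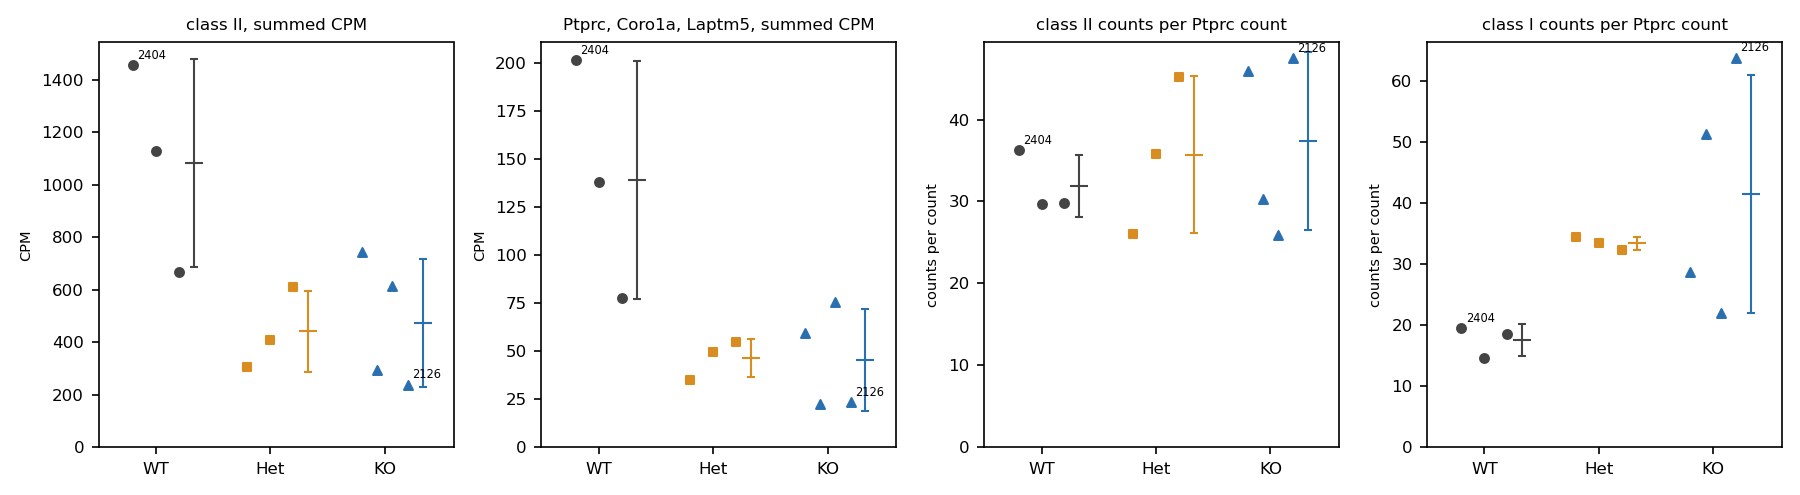
Summed CPM of class II genes and of 3 leukocyte genes, and class II and class I counts per Ptprc count (y axes, from 0), in WT, Het and KO libraries; points are mice, and bars give mean and SD. The mean class II and leukocyte sums are both highest in WT, the class II ratio to Ptprc overlaps between groups, and the class I ratio is 14.6 to 19.5 in WT and 22.0 to 63.8 elsewhere.

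Class II chains were also set against class I heavy chains in the same library. H2-Aa, H2-Ab1 and H2-Eb1 counts per count of H2-K1 and H2-D1 were 2.21, 2.49 and 2.19 in WT, 1.21, 1.62 and 1.86 in Het and 2.18, 0.845, 1.66 and 1.09 in KO libraries. All 7 Het and KO libraries were below the 3 WT libraries, KO-2079 by the smallest margin (2.18 against 2.19 in WT-2067). The ratio was not tested, and the share of gene pairs with such a separation was not computed. WT-2404 was not apart from the other WT libraries in this ratio.

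Of 44 further genes of the pathway, 42 were tested. In Het and KO against WT 32 had log2 fold changes below 0, with a median of -0.38, and by unadjusted edgeR p under 0.05 15 were lower and 2 higher, against the background of 16.5% and 11.7%. None passed the adjusted threshold in edgeR, and DESeq2 called 9 lower, against 8.5% of its genes. Without WT-2404, 29 were below 0 with a median of -0.22. By unadjusted edgeR p 4 were then lower and 2 higher, against 871 and 715 of all 13684 genes. The class II processing genes had 6 of 6 below 0 and a median of -1.28, or 5 of 6 and -0.71 without WT-2404. They included the endosomal proteases Lgmn at -1.94 and Ctss at -1.75, the thiol reductase Ifi30 at -0.86, the intramembrane protease Sppl2a at -0.41 and March1, a ligase that removes class II from the surface, at -1.69 (edgeR adjusted p = 0.0597 to 0.0934). Ctsl, a protease found in many cell types, was at -0.14. Lgmn, Ctss and Ifi30 were at -0.96, -1.03 and -0.47 without WT-2404.

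Cd40, a costimulatory receptor of antigen-presenting cells, was at 3.02, 2.46 and 1.71 CPM in WT, 0.351, 0.186 and 0.736 CPM in Het and 0.989, 0.658, 1.43 and 0.505 CPM in KO libraries. No Het or KO library reached WT, and the estimate was -1.90 on the log2 scale (edgeR adjusted p = 0.0597), or -1.67 without WT-2404. Among 11 transcription factors of the branches, Irf8, a factor of the dendritic and monocyte lineages, was at -1.63 (edgeR adjusted p = 0.0619). Of the X box factors, Rfx5 was at -0.35, Rfxap at 0.15 and Rfxank at 0.05. Of the Y box factors, Nfya was at -0.70 (edgeR adjusted p = 0.111), or -0.45 without WT-2404, Nfyb at 0.11 and Nfyc at -0.11. The interferon gamma receptor chain Ifngr2 was at -0.53 (edgeR adjusted p = 0.0919; -0.30 without WT-2404), and Ifng itself had 3 counts over all 10 libraries, too few to test. Of the class I-like genes, Fcgrt, the neonatal Fc receptor, was at -1.31 and Hfe, an iron regulator, at -1.13 (edgeR adjusted p = 0.0664 and 0.0918), and without WT-2404 they were at -0.52 and -0.48. The loading chaperones Calr at -0.37, Canx at 0.07, Pdia3 at -0.42 and Tapbpl at -0.03 gave a median of -0.20, or -0.07 without WT-2404.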

How the data were processed

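The authors deposited 1 table of raw counts per gene symbol, with 1 column for each of 10 mice; all columns were matched by genotype and mouse number. Per the labels' protocols, frozen tissue was pulverised, RNA was column-purified and stranded mRNA libraries were made. The submitters' processing notes name build mm10, DRAGEN, STAR and Cufflinks; the counting tool, annotation and strand setting are not given in the sources used here. A further part of the genotype, shared by all groups, and the result of 1 pathway gene are not reported here, and 1 labelled WT mouse was not analysed here. Of all counts, 2.59% to 8.71% lay outside genes and 0.101% to 0.584% were ambiguous; these stayed out of library sizes. Poly(A) selection leaves out untailed RNA.

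Genes passing edgeR 4.0.16 filterByExpr (minimum count 10; R 4.3.3) were TMM-scaled and tested in 1 quasi-likelihood fit over all 10 libraries without covariates, with two-sided p-values adjusted by Benjamini and Hochberg's method over all 13688 genes and a threshold of 0.05. WT was set against KO, against Het and against the mean of both, and KO was set against Het. The code was tested on simulated data. DESeq2 1.42.0, other scalings, no filter and leaving out each library were alternatives; the lists without WT-2404 were added after seeing the data. Ratios were of raw counts within a library. Floors cover counting error only, as the reads carry no molecular identifiers.

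Members and gene lists were chosen with earlier results of these data known. Values by library are given for the main members and any other with an unadjusted edgeR p under 0.05 or a mean of at least 5 CPM; other pathway genes are named if among the 12 with the smallest p for the mean of both, or as a role's remaining genes, chosen after their values were seen. Sequences are from RefSeq (GRCm38.p6); lengths and coordinates are from GENCODE mouse release 21 (mm10), which may differ from the authors' annotation.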

Additional observations from a re-analysis of the deposited data

Results flagged for a closer look

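In the 4 KO libraries, 40 measures were checked for a lone high or low library, of which chance alone would single out about 1 in 20. A lone library stood apart in 3, each time KO-2126. Tapbp was at 23.7 CPM in KO-2126, where the other KO libraries had 34.0 to 35.0 CPM. H2-K1 was at 78.6 CPM in KO-2126, against 129 to 139 CPM in the others. H2-Eb1 counts per H2-Ab1 count were 0.941 in KO-2126, against 0.890 to 0.897 in the others. KO-2126 also had the lowest summed class II and class I CPM of all libraries (240 and 322) and the highest share of digestive enzyme counts (77.1%). The part of that share in these values was not tested.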

How the results depend on the processing

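Genes called at an adjusted p under 0.05 numbered 0 in edgeR in all 4 comparisons. By library size alone they were 2835 (KO against WT), 3125 (Het against WT) and 7109 (Het and KO together), by DESeq2 1011, 391 and 1750, and without a filter on low counts 8 in the last. Leaving out 1 library gave 0 to 1933, 0 to 1158 and 0 to 2830 calls, the highest each time without WT-2067; without KO-2124 and without KO-2079 the last comparison gave 490 and 50. By library size alone, in the same order, class I medians were -1.63, -2.05 and -1.85 and class II medians -2.30, -2.77 and -2.52, where all genes moved to -1.17, -1.36 and -1.26. The summed CPM was then 1335 (class I, WT), 318 (class I, Het) and 2497 (class II, WT). Signs turned by library size alone for H2-Ke6 (-0.38, -0.78 and -0.58), Tap2 in KO against WT (-1.17) and Psmb10 in Het against WT (-0.012) and in Het and KO (-0.0036); the cause was not tested. Leaving out 1 library gave Erap1 -0.31 to 0.22 in KO against WT and -0.44 to 0.094 in Het and KO, Tap2 -0.0028 (without KO-2079) to 0.18 and -0.20 to 0.034, and H2-Q4 in KO against WT -0.35 to 0.12 (without KO-2126); the other upper values were without WT-2404. All class II medians against WT stayed below 0 in every alternative run. Using only the libraries compared gave 0 calls, and was not run for Het and KO together, which uses all. No paired analysis was possible because the groups share no replicate numbers. A member under 3 counts in a library could not be told from 0 there.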
